A study of Mus musculus with 3 samples.

Results

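Trp53 and 9 of its target genes (Cdkn1a, Mdm2, Bax, Bbc3, Pmaip1, Ccng1, Gadd45a, Sesn2 and Perp) were followed in liver, stomach and lung tumours of AID transgenic mice. AID is activation-induced cytidine deaminase, an enzyme that deaminates cytosine in DNA and normally acts on antibody genes in B cells. The genes were taken by name from the array design, older names included, and all 10 were found, on 14 of its 41174 probes, among 27677 gene names in all. Each organ had 1 two-colour Agilent array of a tissue pair. The liver array compared a liver cancer with nontumour liver of the same AID transgenic mouse, and the stomach array a gastric cancer with nontumour stomach of the same AID transgenic mouse. The lung array compared a lung cancer of an AID transgenic mouse with normal lung of a wild-type mouse, so all tissues except the normal lung carried the transgene. The labels give no promoter for the transgene, and no strain, age or number of animals. There were no replicates and no dye swap, so nothing below could be checked in a replicate, p-values are not given, and precision is limited by having 1 array per organ.

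The p53 protein, encoded by Trp53, is a transcription factor that accumulates after DNA damage and other stress, mainly because its breakdown is blocked, and its mRNA often changes little. It binds a response element made of a pair of half-sites and raises genes that stop the cell cycle (Cdkn1a, Ccng1, Gadd45a), start cell death (Bax, Bbc3, Pmaip1, Perp), limit growth under stress (Sesn2) or remove p53 itself (Mdm2). In liver, stomach and lung alike the pathway is known chiefly as a barrier to tumours, and mutation of Trp53 is among the most frequent changes in carcinomas of these organs.

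The promoters are shown first, because p53 acts through them, and the 4 genes printed are those with a pair of half-sites. RefSeq promoter windows (GRCm38.p6) matched 8 of the 10 genes, with 11 windows in all; none matched for Perp and Pmaip1. Each window runs from 250 bases before a transcription start to 50 bases after it, and the whole of it was searched for the p53 half-site consensus, a motif of 10 letters whose complement reads as the same motif, so that both strands are covered. The half-site was found in 6 of the 11 windows, in 6 genes, against 8.36% of all 32851 windows of the same length. A pair of half-sites with at most 2 mismatches and a spacer of at most 1 base was found in 3 of the 11 windows. Those were windows of 3 genes, Cdkn1a, Ccng1 and Bax, and 0.682% of all windows held such a pair. With a spacer of up to 13 bases the pair was found in 4 of the 11 windows, against 4.09% of all windows. These were in 4 genes, Gadd45a being the fourth. The genes were chosen as p53 targets, so these counts do not test p53 control. A window can hold more than 1 of these motifs, and a match describes the letters and not binding.

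In the sequences below, capitals mark the best pair of half-sites with a spacer of at most 1 base for Cdkn1a, Ccng1 and Bax. For Gadd45a they mark the single half-site. The sequences are the bases before the start, 5′ to 3′ on the gene's strand. They lie at chr17:29090729-29090978 on the plus strand (Cdkn1a), chr11:40755287-40755536 on the minus strand (Ccng1), chr7:45466899-45467148 on the minus strand (Bax) and chr6:67037408-67037657 on the minus strand (Gadd45a).
Cdkn1a: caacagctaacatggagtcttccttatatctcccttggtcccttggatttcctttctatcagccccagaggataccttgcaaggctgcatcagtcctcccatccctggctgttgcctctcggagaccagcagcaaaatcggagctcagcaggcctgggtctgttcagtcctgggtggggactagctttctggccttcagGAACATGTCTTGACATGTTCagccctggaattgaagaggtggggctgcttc
Ccng1: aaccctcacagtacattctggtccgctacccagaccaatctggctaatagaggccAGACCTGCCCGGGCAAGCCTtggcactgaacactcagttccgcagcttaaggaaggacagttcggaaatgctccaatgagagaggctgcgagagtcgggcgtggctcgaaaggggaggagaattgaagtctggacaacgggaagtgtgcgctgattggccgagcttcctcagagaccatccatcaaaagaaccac
Bax: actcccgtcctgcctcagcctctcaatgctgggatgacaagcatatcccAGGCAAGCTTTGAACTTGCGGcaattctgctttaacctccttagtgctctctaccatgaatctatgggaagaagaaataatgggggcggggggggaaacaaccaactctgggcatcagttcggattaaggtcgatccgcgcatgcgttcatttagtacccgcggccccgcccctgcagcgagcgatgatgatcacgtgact
Gadd45a: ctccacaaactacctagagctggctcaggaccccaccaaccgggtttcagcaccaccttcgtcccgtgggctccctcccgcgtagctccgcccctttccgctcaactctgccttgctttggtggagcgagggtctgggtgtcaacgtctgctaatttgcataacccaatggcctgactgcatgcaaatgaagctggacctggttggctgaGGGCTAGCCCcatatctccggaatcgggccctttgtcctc
The Cdkn1a pair in capitals had 1 mismatch and no spacer and lay from 51 to 32 bases before the start. The Ccng1 pair also had 1 mismatch and no spacer, from 195 to 176 bases before the start. The Bax pair had 2 mismatches and a spacer of 1 base, from 201 to 181 bases before the start. The Gadd45a half-site GGGCTAGCCC lay from 40 to 31 bases before the start. Single half-sites were also found for Trp53 (GGACTTGCCC, from 75 to 66 bases before the start, on the plus strand of chromosome 11) and Mdm2 (GAACTTGCCT, from 186 to 177 bases before the start, on the minus strand of chromosome 10). These letters were in none of the 3 Bbc3 windows, nor in the Sesn2 window or the other Cdkn1a window.

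Scanner values were used for the liver and stomach arrays. For lung, values came from the authors' deposited table of genes that differed, in which a spot that is not listed has no value. The lung signals printed below give the listed ratios, which the raw signals printed for liver and stomach do not. Signal sizes are therefore not comparable between lung and the other organs. The sources did not settle the direction of the ratios. By the sample labels the tumour RNA carried Cy3. The authors' deposited table, to which the series' design text points, nevertheless heads its lists of Cy5-high genes as up in tumours. Ratios are accordingly named by their channels, as log2(Cy5/Cy3). By the headings Cy5 is the likely tumour channel, and by the dye labels every sign would turn. Ratios are after background correction and removal of the curve of ratio against brightness on each array (loess), and errors are the SD between the probes of a gene. For a gene with a single probe the error is that of the scanner software, on the log2 scale, which covers the measurement of 1 spot only.

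The tissue labels were borne out by defining genes. The 7 hepatocyte genes on the design were well above background in both channels of the liver array, with median raw signals of 17300 in Cy3 and 24500 in Cy5, against 170 and 169 on the stomach array. The 7 gastric gland genes had medians of 15000 in Cy3 and 1680 in Cy5 on the stomach array, against 223 and 226 on the liver array. Negative control spots had median raw signals of 127 (Cy3) and 67.7 (Cy5) in liver and 119 and 68.4 in stomach. Gene spots had medians of 180 and 152 in liver and 171 and 163 in stomach. All 14 probes of the p53 genes were well above background in both channels of both arrays, and none was saturated or an outlier spot. Most gene spots passed the same call, 84.1% in Cy3 and 90.0% in Cy5 in liver and 82.3% and 88.8% in stomach. The call alone therefore does not show expression.

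In liver 9 of the 10 p53 genes were nearly even between the channels and Perp was brighter in Cy3. In stomach the 10 lay on both sides of 0 after loess, and all 10 lay above 0 without it. In lung those listed were brighter in Cy5. In liver none of the 10 genes reached 2-fold in either channel, beside 0.152% of 25606 measured genes in Cy5 and 0.0703% in Cy3. In stomach 1 of the 10, Pmaip1, was at least 2-fold brighter in Cy5, against 0.873% of 25322 measured genes, and none was in Cy3, against 1.41%. The median ratio of the 10 genes was 0.08 in liver, beside 0.01 over all genes, and 0.29 in stomach, beside 0.001 over all genes. In lung the authors' deposited table listed 4 of the 10 as brighter in Cy5 (Cdkn1a, Pmaip1, Ccng1 and Perp), against 6.84% of the 27677 gene names, and none as brighter in Cy3, against 12.4%. Its liver lists held none of the 10 in Cy5, against 1.75% of gene names, and 1, Perp, in Cy3, against 1.36%. Its stomach lists held 2 in Cy5 (Pmaip1 and Gadd45a), against 5.17%, and 2 in Cy3 (Sesn2 and Perp), against 4.32%. The liver and stomach lists in the authors' deposited table start at a fold of 1.35, with scanner p-values up to 0.01, and the lung lists at 2-fold, so a gene missing from the lung lists may still have differed by less than that.

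**Figure D1:**
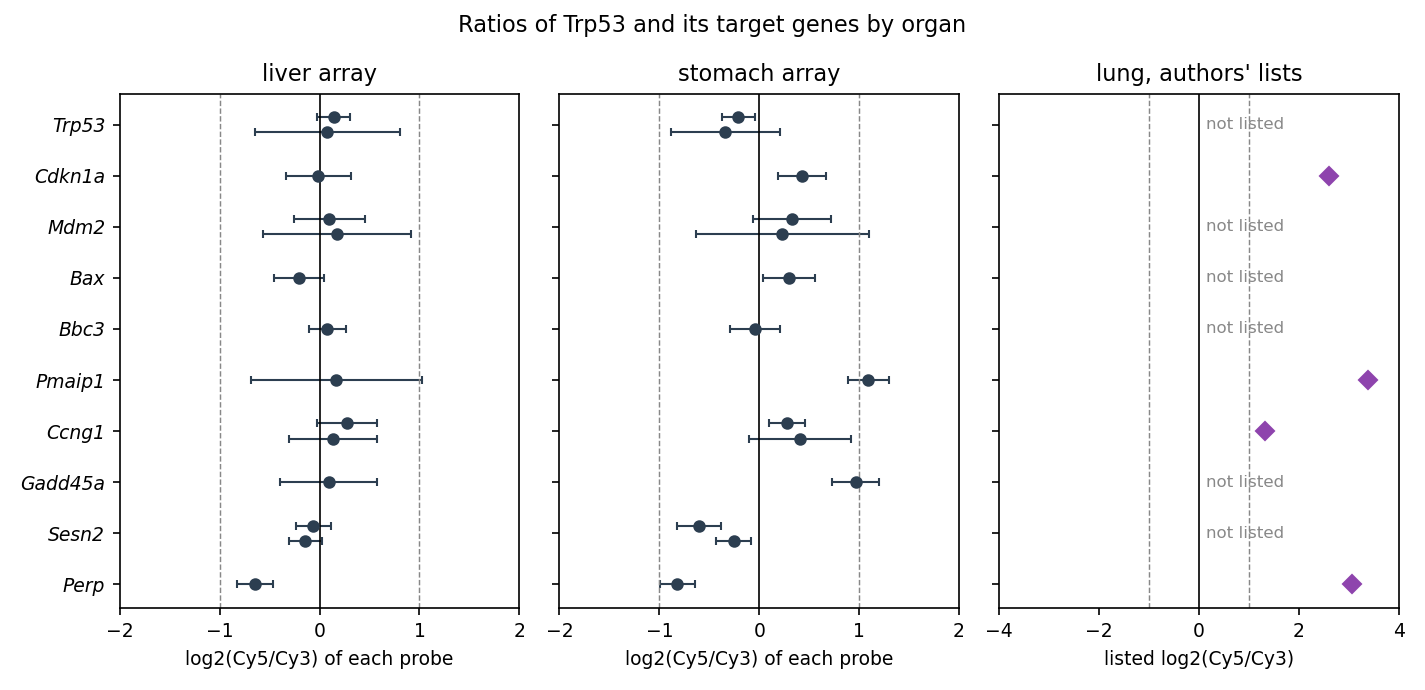
Log2(Cy5/Cy3) of each probe on the liver array (left) and the stomach array (middle), with bars of the scanner software's error, and the log2 ratio listed by the authors' deposited table for lung (right, on a wider axis). Dashed lines mark 2-fold. After loess, Perp lay to the left of 0 in liver and stomach and at 3.06 in lung (without loess it was at 0.20 in stomach), and Pmaip1 lay at 1.09 in stomach and 3.39 in lung.

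Trp53 itself differed little between the channels. On the liver array its probe on chromosome 11 at 69671206-69671265 gave raw mean signals of 166 (Cy3) and 140 (Cy5), and its probe at 69662031-69662089 gave 2210 and 3700. (For these and all other probe coordinates, the build is not stated in the labels or files used.) Both probes had ratios close to 0 after normalization, and the gene's log2 ratio was 0.11 ± 0.04 (SD, 2 probes). On the stomach array the probes gave 190 and 158, and 2020 and 4100, and log2 ratios of -0.34 and -0.21, with a mean of -0.28 ± 0.09 (SD, 2 probes), 1.21-fold brighter in Cy3; the sign turned, to 0.18, if only the array median was removed and no loess curve. The mean scanner error of its probes was 0.45 in liver and 0.36 in stomach, larger than the gene's ratio on either array. In stomach the brighter probe, at -0.21, had an error of 0.16. Of all measured stomach genes, 9.96% had a lower ratio than Trp53. Trp53 was not in the lung lists of the authors' deposited table.

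Mdm2, the ubiquitin ligase that marks p53 for breakdown and is itself raised by p53, was slightly brighter in Cy5 on both arrays. Its probes on chromosome 10, at 117204040-117204099 and 117200593-117200652, gave raw signals of 166 and 145, and 219 and 230, on the liver array. Its liver ratio was 0.14 ± 0.05 (SD, 2 probes). On the stomach array the probes gave 151 and 148, and 187 and 257, with a ratio of 0.28 ± 0.07 (SD, 2 probes), 1.21-fold. The mean scanner error of its probes was 0.55 in liver and 0.63 in stomach, larger than either ratio. Mdm2 was not in the lung lists of the authors' deposited table. Its relative Mdm4, which blocks p53 activity, had ratios of 0.06 in liver and -0.07 in stomach.

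Among the genes of cell cycle arrest, Cdkn1a was even in liver, moderately Cy5-high in stomach and listed with a high ratio in lung. Cdkn1a encodes p21, the inhibitor of cyclin-dependent kinases through which p53 halts the cycle. Its probe (chromosome 17, 27293819-27293878) gave raw signals of 238 in Cy3 and 242 in Cy5 in liver, a ratio of -0.01 ± 0.33 (scanner error). In stomach the same probe gave 263 and 488, a ratio of 0.42 ± 0.24, 1.34-fold, higher than that of 94.2% of measured genes. In lung the authors' deposited table gave signals of 1320 in Cy3 and 8030 in Cy5, a ratio of 6.10-fold, or 2.61 on the log2 scale. The liver ratio lay within the error of 1 spot, and the stomach ratio exceeded it.

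Ccng1, encoding cyclin G1, a p53 target that acts with a protein phosphatase on the Mdm2 protein, was slightly brighter in Cy5 in liver and stomach and listed in Cy5 for lung. Its probes (chromosome 11, 40693768-40693827 and 40691782-40691841) gave 198 and 199, and 240 and 301, in liver. The liver ratio was 0.20 ± 0.10 (SD, 2 probes). In stomach the probes gave 168 and 219, and 462 and 968, and a ratio of 0.34 ± 0.09 (SD, 2 probes), 1.27-fold. The mean scanner error of its probes was 0.37 in liver and 0.35 in stomach, larger than either ratio, and its brightest probe was at 0.27 in liver and 0.28 in stomach. For lung the authors' deposited table listed 1 of the 2 probes, with signals of 687 and 1730 and a ratio of 2.52-fold (log2 1.33). Its relative Ccng2 had ratios of 0.27 ± 0.18 (scanner error) in liver and 0.49 ± 0.18 in stomach.

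Gadd45a, a stress protein that acts in growth arrest and DNA repair, was even in liver and high in Cy5 in stomach. In liver its probe (chromosome 6, 67017167-67017226) gave 197 in Cy3 and 190 in Cy5, a ratio of 0.09 ± 0.48 (scanner error). In stomach it gave 259 and 704, a ratio of 0.96 ± 0.23, or 1.95-fold, above 99.0% of measured genes. The authors' deposited table gave it 2.24-fold in stomach and did not list it for lung. Its relatives did not share this ratio: Gadd45b was at 0.31 in liver and -0.18 in stomach, and Gadd45g was at 0.03 ± 0.16 and -1.42 ± 0.20 (scanner error). Gadd45b was listed for lung in the authors' deposited table as 2.86-fold brighter in Cy3, on part of its 2 probes.

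Of the genes of cell death, Pmaip1 had the highest stomach ratio of the 10 genes. Pmaip1 encodes NOXA, a BH3-only protein that neutralises survival members of the BCL2 family. In liver its probe (chromosome 18) gave 159 in Cy3 and 134 in Cy5, a ratio of 0.17 ± 0.85 (scanner error), close to the negative controls in Cy3. In stomach it gave 343 and 1180, a ratio of 1.09 ± 0.20, or 2.13-fold, above 99.4% of measured genes. In lung the authors' deposited table gave signals of 3700 and 38600, 10.5-fold, which is 3.39 on the log2 scale and the highest listed ratio of the 10 genes. In stomach and lung the Cy5 signal of Pmaip1 was thus the brighter, and in liver the channels did not differ beyond the error of 1 spot.

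Bbc3 and Bax, which act at the same mitochondrial step, did not share the Pmaip1 values. Bbc3 encodes PUMA, a BH3-only protein, and its probe (chromosome 7, 14080459-14080518) gave 513 and 716 in liver and 285 and 389 in stomach. Its ratios were 0.08 ± 0.18 (scanner error) in liver and -0.04 ± 0.25 in stomach, both within the error of 1 spot. Bax, the effector that permeabilises the outer mitochondrial membrane, gave 315 and 316 in liver and 256 and 427 in stomach, from a probe that spans 41641827-41641982 of chromosome 7. Its ratio was -0.20 ± 0.25 (scanner error) in liver (0.01 without loess) and 0.30 ± 0.26, or 1.23-fold brighter in Cy5, in stomach. Neither gene was in the lung lists of the authors' deposited table.

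After loess Perp was brighter in Cy3 in liver and stomach (in stomach the sign turned without loess), and in lung it was listed as brighter in Cy5 by the authors' deposited table. Perp is a membrane protein that p53 raises during cell death and that p63, a relative of p53, maintains in the desmosomes of stratified epithelium. Its probe (chromosome 10, 18579623-18579682) gave raw signals of 1050 in Cy3 and 975 in Cy5 in liver, a ratio of -0.65 ± 0.18 (scanner error), 1.57-fold brighter in Cy3, and only 0.351% of measured genes lay lower. In stomach it gave 6430 and 9870, a ratio after loess of -0.82 ± 0.17, 1.76-fold brighter in Cy3, below which lay 2.03% of measured genes. The raw Cy5 signal was the higher there, and the sign rests on the brightness curve: without loess the Perp ratio was 0.20, while the 193 spots of like brightness had a median of 1.01. In liver the ratio without loess was -0.31, with the same sign. In lung the authors' deposited table gave signals of 6890 in Cy3 and 57300 in Cy5, 8.32-fold brighter in Cy5, or 3.06 on the log2 scale. These are not raw signals and their sizes are not comparable with those of liver and stomach. The authors' deposited table, whose ratios come from the scanner software, listed Perp as 1.63-fold brighter in Cy3 in liver and 1.72-fold in stomach. Only 2 of 24766 genes measured on both arrays lay within 0.1 of Perp on each of them.

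Sesn2, a sestrin that restrains growth signalling under oxidative and nutrient stress, was even in liver and Cy3-high in stomach after loess. Its probes (chromosome 4, 131871376-131871435 and 131870492-131870551) gave 1090 and 1440, and 641 and 840, in liver, a ratio of -0.10 ± 0.06 (SD, 2 probes; 0.23 without loess). In stomach they gave 658 and 1030, and 402 and 419, with ratios of -0.26 and -0.60 and a mean of -0.43 ± 0.24 (SD, 2 probes), which turned to 0.09 without loess. The authors' deposited table listed 1 of the 2 probes for stomach, as 1.62-fold brighter in Cy3, and neither for lung. Its relatives Sesn1 and Sesn3 had ratios of -0.14 and 0.02 in liver and -0.51 and -0.17 in stomach. The stomach value of Sesn1 averages a bright probe at -1.13 ± 0.22 (scanner error) and dim probes at -0.28 and -0.11. Sesn1 was listed for stomach as 2.47-fold brighter in Cy3. For lung the authors' deposited table listed 1 of 3 Sesn1 probes, as 3.70-fold brighter in Cy3.

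**Figure D2:**
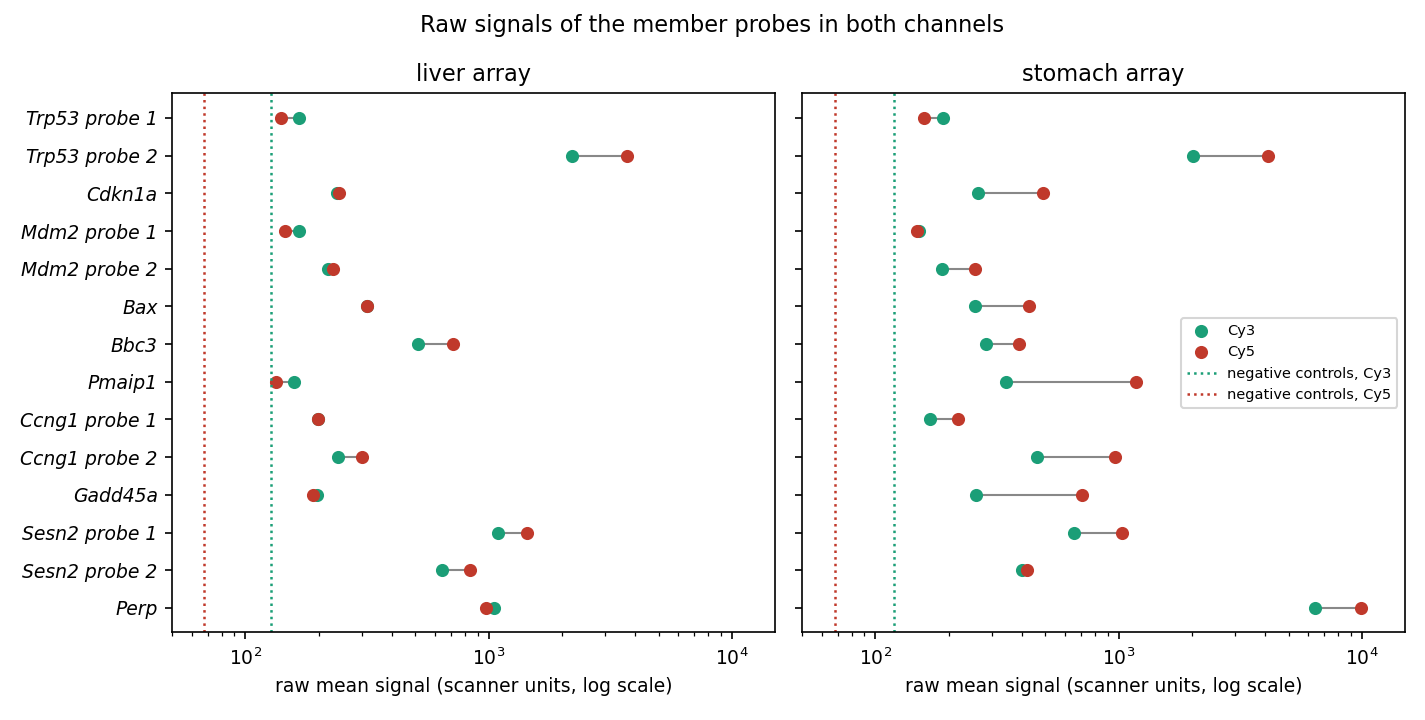
Raw mean signal of each of the 14 probes in Cy3 (green) and Cy5 (red) on the liver and stomach arrays, on a log axis in scanner units, before any correction. Dotted lines are the medians of the negative controls in each channel. Pmaip1, Gadd45a, Cdkn1a and the second probes of Ccng1 and Trp53 have wide gaps towards Cy5 in stomach, the Trp53 probe has one in liver too (2210 and 3700), and the raw Cy5 signal of Perp in stomach (9870) is above its Cy3 signal (6430).

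The order of the ratios in stomach ran from Pmaip1 (1.09) and Gadd45a (0.96) through Cdkn1a (0.42), Ccng1 (0.34), Bax (0.30), Mdm2 (0.28) and Bbc3 (-0.04) to Trp53 (-0.28), Sesn2 (-0.43) and Perp (-0.82). Pmaip1 and Gadd45a were closer to each other than the scanner error of either, and so were neighbours among Cdkn1a, Ccng1, Bax and Mdm2. The gaps from Gadd45a to Cdkn1a and from Sesn2 to Perp were larger than the scanner error of either gene. In liver 9 of the 10 genes lay between -0.20 and 0.20, each within its own scanner error, and Perp lay apart at -0.65. Of the genes measured on both arrays, 37 lay within 0.1 of Pmaip1 and 62 within 0.1 of Gadd45a on each, whereas 4564 lay as near to Bbc3 and 1290 to Mdm2. With 1 array per organ these orders describe the arrays and not the organs.

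The dependence of the ratio on brightness was large next to these differences. In stomach the median ratio of gene spots, centred on the array without loess, ran from -0.32 in the dimmest bin of brightness to 1.12 in the brightest, and in liver from -0.23 to 0.40. Without loess the stomach ratios were 1.62 for Pmaip1, 1.39 for Gadd45a, 0.81 for Cdkn1a and 0.66 for Bax. The signs of Trp53, Bbc3, Sesn2 and Perp then turned to 0.18, 0.32, 0.09 and 0.20 in stomach, and those of Cdkn1a, Bax and Sesn2 to 0.14, 0.01 and 0.23 in liver. Pmaip1 and Gadd45a thus stayed Cy5-high with and without the curve, whereas the 4 Cy3-high values in stomach turned.

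**Figure D3:**
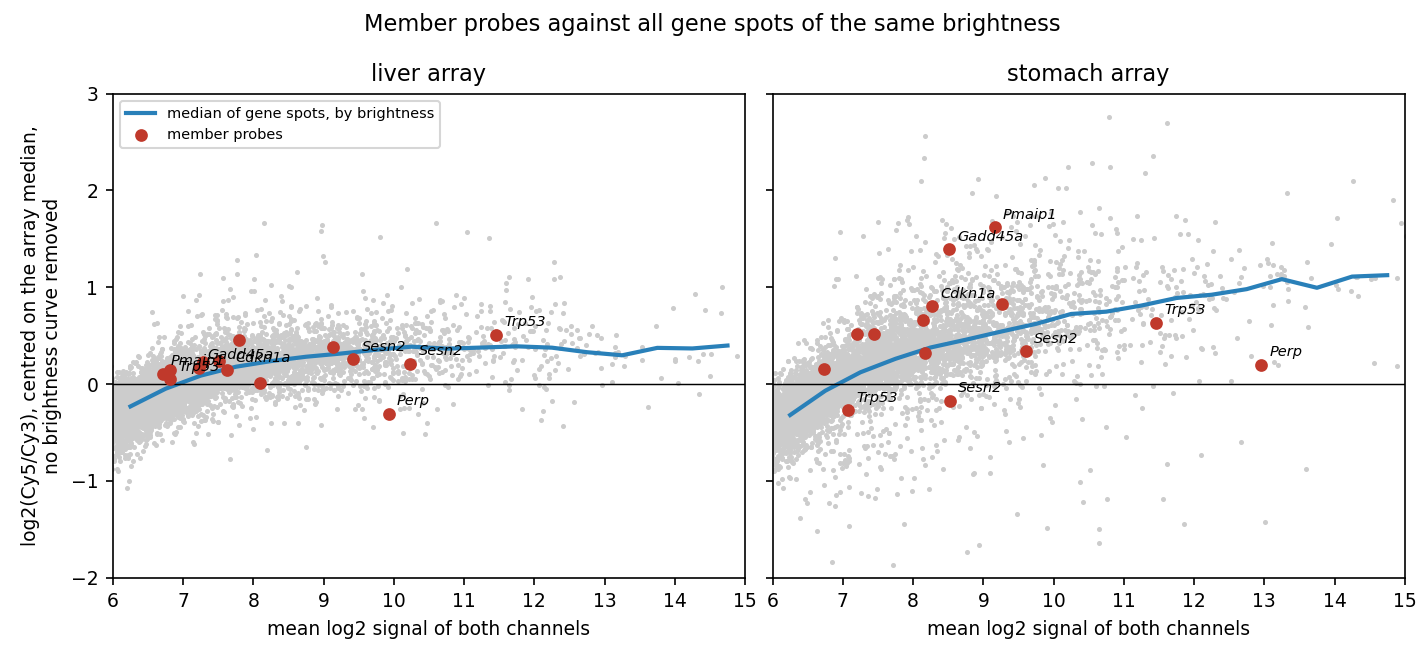
Log2(Cy5/Cy3) centred on each array's median, before the brightness curve is removed, against mean log2 signal of both channels, for 6000 randomly drawn gene spots (grey) and the 14 member probes (red) on each array. The blue line is the median of all gene spots by bin of brightness. In stomach Pmaip1 and Gadd45a lie above the line, and Perp lies below it at a ratio of 0.20, so that its sign after loess (-0.82) comes from the line.

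Markers of other cells differed between the channels too, on the same single arrays. Fewer cells of a type and less RNA per cell cannot be told apart in bulk tissue. Beside the Cy5-high Pmaip1, Gadd45a and Cdkn1a in stomach, 10 of 10 markers of dividing cells had ratios above 0 there. These ran from 0.40 to 1.53 with a median of 0.96 (median 0.11 in liver). At least 2-fold in Cy5 were 5 of them, against 0.873% of all measured genes. In lung the authors' deposited table listed 3 of the 10 in Cy5, against 6.84% of all gene names. The part of dividing cells in the p53 gene ratios was not tested.

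Markers of squamous epithelium, a stratified lining that also covers the mouse forestomach, had the same direction as Perp in lung and, after loess, in stomach (without loess Perp was at 0.20 there), but not in liver. In stomach 8 of the 12 markers were at least 2-fold brighter in Cy3, against 1.41% of all measured genes. In Cy5 there was 1, Ivl (1.16), against 0.873%. The 12 ratios ran from -4.20 to 1.16 with a median of -1.62 (-1.10 without loess). Examples in Cy3 are Krt5 (-2.11), a basal keratin, Lor (-4.20), the cornified envelope protein loricrin, and Pkp1 (-2.43), a desmosome protein. In lung the authors' deposited table listed 6 of the 12, all brighter in Cy5, against 6.84% of all gene names. Among them were Ivl at 17.0-fold, Lor at 3.79-fold and Pkp1 at 2.82-fold. In liver none of the 12 was 2-fold in either channel and the median was -0.01, beside a Perp ratio of -0.65. In stomach 12 of the 12 markers were well above background in both channels and in liver 11 of 12. Most gene spots were too (84.1% in Cy3 and 90.0% in Cy5 in liver, 82.3% and 88.8% in stomach), so this does not show expression. The part of these markers in the Perp values was not tested.

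Several other lineages also differed between channels. In stomach 5 of 6 smooth muscle and 5 of 7 gastric gland markers were at least 2-fold brighter in Cy3, against 1.41% of all measured genes. In the authors' deposited table for lung, 12.4% of all gene names were listed as brighter in Cy3. Listed so were 6 of 8 lung epithelium, 5 of 5 endothelial and 5 of 6 T cell markers. So were 4 of 6 smooth muscle and 2 of 4 B cell markers. In liver 6 of 6 fibroblast markers had ratios above 0, with a median of 0.49, none of them 2-fold. Of 6 measured hepatocyte markers in liver, 5 had ratios below 0, as Perp did, with a median of -0.42 (-0.02 without loess). The 4 B cell markers had medians of -0.01 in liver and -0.004 in stomach, and none was 2-fold there. The part of these lineages in the p53 gene ratios was not tested.

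The wider pathway was described by 86 other genes on the design, in 5 lists, and their median stayed near 0 in liver and stomach. In liver 83 were measured, with a median of 0.03. None was 2-fold in either channel, beside 0.152% of all measured genes in Cy5 and 0.0703% in Cy3. In stomach all 86 were measured, with a median of 0.04. At least 2-fold brighter were 1 in Cy5, against 0.873% of all measured genes, and 4 in Cy3, against 1.41%. The Cy5 count was near the share of all genes. The split of 1 and 4 became 3 in Cy5 and 4 in Cy3 with an offset of 10. It turned to 5 and 4 with the scanner software's own ratio and to 7 and 3 without loess. In the 1 and 4 first given, the gene in Cy5 was Pcna, the replication clamp (1.12 ± 0.19, scanner error). The genes in Cy3 were Trp63, Trp73, Cdkn1c and Gadd45g. Cdkn1c, encoding the p57 kinase inhibitor, was at -1.69 ± 0.27 (scanner error), and its relative Cdkn1b, encoding p27, was at -0.04. For lung the authors' deposited table listed 25 of the 86, 14 in Cy5 and 12 in Cy3, with Trp73 in both. Over all gene names 6.84% were listed in Cy5 and 12.4% in Cy3, and the share in Cy3 was near that of all genes. A gene counts as listed on any 1 probe, and the 86 genes had 166 probes, against 41174 probes for 27677 names. The 86 thus had more probes per gene, and the shares of all names are not matched for this.

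The p53 relatives p63 and p73, which bind the same response element, rested on single probes in stomach. One Trp63 probe (chromosome 16, 25553466-25553525) had a ratio of -3.17 ± 0.38 (scanner error), with raw signals of 703 in Cy3 and 137 in Cy5. Another (25529172-25529231) was at -0.07 ± 1.59 with signals of 141 and 98.9, near the negative controls, and the remaining probe was not well above background in either channel. One Trp73 probe (chromosome 4, 153048476-153048535) was at -2.86 ± 0.27, with signals of 3740 and 1190, and the other (153045876-153045935) was at -0.05 ± 2.64 with signals of 134 and 84.5. In liver the same bright Trp73 probe was at 0.07 ± 0.17 and the Trp63 probe at 0.88 ± 0.58, with raw signals of 159 and 226. The authors' deposited table, with the scanner software's ratio, listed Trp63 in liver as 3.15-fold brighter in Cy5 (log2 1.65), so this value depends on the processing. In lung the authors' deposited table gave these Trp73 probes opposite directions, 2.61-fold in Cy5 for the one bright in stomach and 10.5-fold in Cy3 for the other, and listed no Trp63 probe.

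Counts of genes listed for lung in the authors' deposited table are given by list, beside 6.84% of all gene names in Cy5 and 12.4% in Cy3. Here too the number of probes per gene is not matched. Of 21 genes of cell cycle arrest and growth, 6 were in Cy5 and 3 in Cy3. Those in Cy5 included Sfn, encoding 14-3-3 sigma, with 3 of 3 probes at 2.15-fold to 2.92-fold, Plk3, a stress kinase, at 3.74-fold, Gtse1, a p53-binding protein of the G2 phase, at 2.90-fold, and Igfbp3, which binds insulin-like growth factors, at up to 4.65-fold. Those in Cy3 were Gadd45b, Cdkn1c and Rprm, with Gadd45b and Rprm listed on part of their probes. Of 16 genes of cell death, the authors' deposited table listed 1 in Cy5, the death receptor Tnfrsf10b at 4.21-fold, on part of its 3 probes. It listed 2 in Cy3, the death receptor Fas, both probes (3.07-fold and 2.43-fold), and Dram1, an autophagy regulator, at 4.82-fold. The Cy3 counts of these lists were near the 12.4% of all gene names listed in Cy3, and the Cy5 count of cell death genes was near the 6.84% in Cy5.

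Of 18 genes of repair, metabolism and oxidative stress on the design, the authors' deposited table listed 2 in Cy5 for lung, among them Ddit4 (3.01-fold), an inhibitor of growth signalling. It listed 3 in Cy3, among them Sesn1 and Rrm2b (2.13-fold), a ribonucleotide reductase subunit. Over all gene names 6.84% were listed in Cy5 and 12.4% in Cy3, and both counts of this list were near those shares. Of 11 genes of the BCL2 family the authors' deposited table listed 4 in Cy5 and 2 in Cy3. Those in Cy5 were Bok at 12.0-fold, Bcl2l2 at 4.24-fold, Bcl2l1 at up to 2.62-fold and Bad at 2.65-fold. Those in Cy3 were Bcl2 at 2.23-fold and Bmf at 2.02-fold. Only Bok, with 1 probe on the design, had every probe of the gene listed. Bcl2l1 and Bcl2l2 protect cells and Bok and Bad promote death, so listed genes of either function were in Cy5. Of 20 regulators it listed Trp73 both ways and Hipk2, a kinase of p53, in Cy3 at 2.38-fold, on part of its 4 probes. The counts of regulators were near the shares of all gene names.

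**Figure D4:**
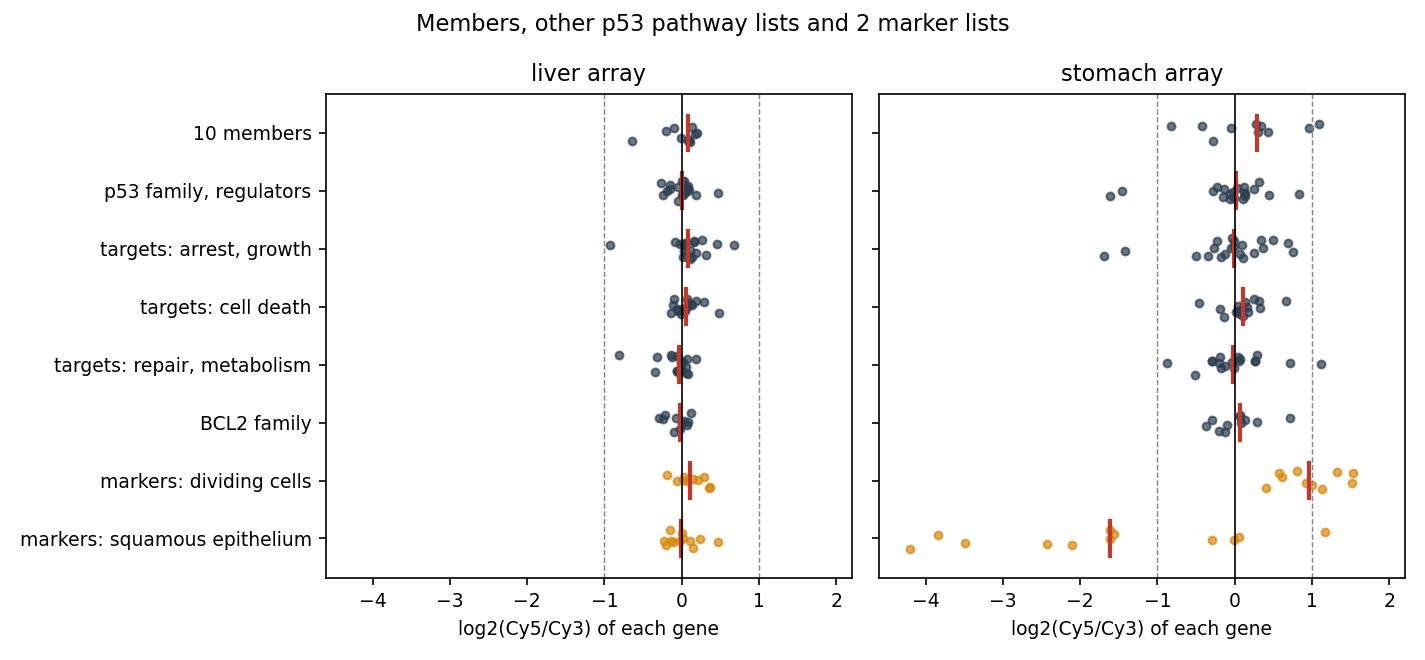
Log2(Cy5/Cy3) after loess of each measured gene in the 10 members, the 5 other p53 pathway lists (dark points) and 2 marker lists (orange points) on the liver and stomach arrays; red ticks are medians and dashed lines 2-fold, and vertical scatter is only for legibility. The 5 other pathway lists centre near 0 on both arrays, the members have a median of 0.29 in stomach, and there the dividing cell markers have a median of 0.96 and the squamous markers one of -1.62 (-1.10 without loess).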

How the data were processed

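RNA of 3 tissue pairs was labelled with Cy3 and Cy5, 1 array per organ. Agilent Feature Extraction 8.5.1.1 read the scans, per the submitters' processing notes. The authors' deposited intensity columns hold spot mean and local background signals, per the file headers. The deposited log10 ratio is red (Cy5) over green (Cy3) of processed signals, and per the file headers its error (printed here on the log2 scale) and p-value come from the software's model of spot error. The authors' deposited gene table lists log10 ratios and 2 signals; its liver and stomach values equal the scanner ratios, and its lung spots were joined by spot number. Its signals were used only from the lung Cy5-high list, where they give the listed ratio (within 0.01 on the log10 scale) at 2288 of 2288 spots.

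Signals were corrected with normexp (offset 50) and loess in limma 3.58.1 (R 4.3.3), control spots at weight 0, then tabulated with Python 3.11.15, numpy 2.4.6, pandas 2.3.3 and matplotlib 3.10.9. Control and outlier spots were left out, as were probes well above background in neither channel or saturated in both; probes of a gene were averaged. With this offset, ratios of dim genes lie nearer 0. The normalization was tested on simulated data with the same background in both channels and a straight trend of ratio with brightness. That test cannot decide the signs that turned without loess. Probes were named by accession (55.7%), current symbol (16.2%) or synonym (7.52%) through RefSeq names of GRCm38.p6, and the rest kept the file's name. Genes were counted at a log2 ratio of at least 1 either way, with no test. Alternatives were 8 other settings of the scanner values and 2 of the lung lists. The members and lists were chosen with earlier results of these data known. The text names all 10 members, pathway genes at 2-fold or listed for lung (some are not reported here), and the closest relatives of members; marker examples were chosen after their values were seen. Left unused were 2 columns of per-sample values, the local backgrounds in the authors' table.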

Additional observations from a re-analysis of the deposited data

Results flagged for a closer look

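Perp had opposite directions in the organs: in the authors' deposited table its log2(Cy5/Cy3) was -0.71 in liver, -0.78 in stomach and 3.06 in lung, with 1 array each. The stomach direction turned without loess, where the Perp ratio was 0.20 (raw signals 6430 in Cy3 and 9870 in Cy5). The difference between organs was not tested, since there are no replicates. The pairs also differ in kind, the lung tumour being set against lung of a wild-type mouse and the others against tissue of the same transgenic mouse, and the organ and the kind of control cannot be told apart.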

How the results depend on the processing

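The liver and stomach ratios each come from a tissue pair of the same mouse. With 1 array per organ, no analysis across several pairs was possible. Under 7 of the 8 settings of the scanner values (median centring without loess excepted) all 10 members moved by less than the scanner error on both arrays and kept their signs; without loess, 3 members in liver and 8 in stomach moved by more. No member was 2-fold in liver under any setting. In stomach the count of 2-fold members was 1, and it was 2 with an offset of 10, with the scanner software's own ratio and without loess. Other pathway genes at 2-fold numbered 0 in liver and 1 with the scanner's ratio, and 5 in stomach, 9 with the scanner's ratio and 10 without loess. Over all genes, liver had 57 at 2-fold (68.4% in Cy5), 217 with an offset of 10 (52.1%), 961 with the scanner's ratio (56.3%) and 117 without loess (94.0%). Stomach had 579 (38.2% in Cy5), 1028 with an offset of 10, 2142 with the scanner's ratio (51.0%) and 1252 without loess (81.2%). In the authors' deposited table for lung, 3 of the 4 members stayed at 3-fold or more, and 3 had all probes listed; of the 25 other pathway genes 13 were at 3-fold or more and 11 had all probes listed the same way. The cause of these differences was not tested. Dim probes, such as that of Pmaip1 in liver (scanner error 0.85), set no close limit on a difference.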
